A study of Mus musculus with 12 samples.

Results

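Mouse embryonic fibroblasts (MEFs) carrying a mutation of Ezh2b were compared directly with MEFs carrying a mutation of Ezh2a. The comparison rests on 6 of the 12 RNA sequencing libraries of the series, chosen by their labels: 3 of the Ezh2b mutant and 3 of the Ezh2a mutant. The other 6 libraries are 3 of the wild-type littermates of each mutant. They show how far the Ezh2b and Ezh2a sets already differed where neither carried a mutation. All MEFs were grown from embryos in high-glucose DMEM with fetal bovine serum, penicillin and streptomycin. The labels name the mutated form of Ezh2 and the littermate relation, and do not give the type of mutation, the number of mutated copies, the strain, the age of the embryos or their number. They do not say whether the libraries of a group came from separate embryos or cultures, so the p-values speak of the spread among these libraries, and that spread may be technical. The libraries held 28811482 to 54070380 counts, with 28811482 to 46722325 in the Ezh2b mutant and 29175698 to 33780452 in the Ezh2a mutant.

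Polycomb repressive complex 2 (PRC2) methylates histone H3 at lysine 27, and EZH2 is its enzyme. The mark is spread over silent developmental genes, among them the Hox genes and many transcription factor genes, and cells deprived of it can switch such genes on. EZH1 can take the place of EZH2 in the complex. The title of the series describes forms of EZH2 that arise from cryptic splice sites, and the deposited counts add all forms of a gene together. Embryonic fibroblasts differ in the Hox genes and other position genes they express, according to the place in the embryo from which they grew, and a fibroblast culture can carry along macrophages or cells of body cavity linings.

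For each gene, 3 quantities were taken from 1 model of all 12 libraries, each as a log2 difference. The mutant difference is Ezh2b mutant minus Ezh2a mutant. The wild-type difference is Ezh2b wild type minus Ezh2a wild type, and it shares no library with the first. The excess is the mutant difference minus the wild-type difference, tested as an interaction, and it shares libraries with both. A gene was called where the adjusted p of edgeR's quasi-likelihood test was under 0.05. Levels are in CPM, counts scaled to a common library size, which can be compared between libraries for 1 gene but not between genes of different length.

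The mutants differed in about as many genes as their wild types. Of 15708 genes tested, 6570 (41.8%) were called between the mutants, 2984 (19.0%) higher and 3586 (22.8%) lower in the Ezh2b mutant. Between the wild types, 6642 (42.3%) were called, 3212 (20.4%) higher and 3430 (21.8%) lower in the Ezh2b wild type. Counts of called genes in the gene lists below are to be read against these shares. Counts of called excesses are to be read against the shares of the excess given further on. The share of mutant calls that were higher was 45.4%, and it was 28.2% when libraries were scaled by their totals alone, without TMM factors. Differences of at least 2-fold were found for 1183 called genes between the mutants, 248 higher and 935 lower, and for 1320 between the wild types, 268 higher and 1052 lower. Of the 6570 genes called between the mutants, 6419 had no overlap between the 3 libraries of one mutant and the 3 of the other. The calls rest on the same libraries, so this count is no separate check of them. The share without overlap over all 15708 genes is not given here.

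As groups, the mutants lay closer together than the wild types. The root mean square log2 difference of group means over the tested genes was 0.572 between the mutants and 0.725 between the wild types. It was 0.390 between the Ezh2a mutant and its wild type and 0.470 between the Ezh2b mutant and its wild type. Pairs of single libraries within a group differed by 0.324 to 0.399. Single libraries carry more noise than means of 3, so this range cannot be set directly against the distances between group means. The longest distance, 0.784, separated the Ezh2a mutant from the Ezh2b wild type. The Ezh2b mutant lay 0.477 from the Ezh2a wild type, about as far as from its own.

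Many genes that differed between the mutants also differed the same way between their wild types. Of the 6570 genes, 3376 (51.4%) were called in the same direction between the wild types. The excess was not called in 2258 of these (34.4% of 6570), was called and made the mutant difference larger in 355 (5.40%), and was called and made it smaller in 763 (11.6%). A further 1087 genes (16.5%) were not called between the wild types and had a called excess in the direction of the mutant difference. In 692 genes (10.5%) the wild-type difference was called the opposite way, and the Ezh2b mutant was higher in 309 of them and lower in 383. The remaining 1415 genes (21.5%) had neither a called wild-type difference nor a called excess and could not be placed. Replicate 3 of the Ezh2b wild type, the deepest library at 54070380 counts, had a mean chi-square per gene of 12.2 and 13.4 against the other 2 libraries of its group, beside at most 4.94 for any other pair within a group. This measure grows with depth, and on the log2 scale its distances of 0.369 and 0.378 were below the 0.399 between replicates 1 and 2. Without it 3522 genes (49.4% of those called between the mutants) were called the same way between the wild types, 1197 had a called excess alone and 727 were called opposite ways, against 3376, 1087 and 692 with it. Over all tested genes the excess was called in 4168 (26.5%), 2305 (14.7%) upward and 1863 (11.9%) downward. Scaled by library totals, 1723 were upward and 2787 downward, so the balance depends on the scaling.

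Large mutant differences were more often downward, and most of the genes concerned were lower in the Ezh2b wild type too. Among the 935 genes at least 2-fold lower in the Ezh2b mutant, 821 (87.8%) had a wild-type difference below 0, 662 (70.8%) were called lower between the wild types, and the median wild-type difference was -1.68 beside a median mutant difference of -1.54. In 480 of them the wild-type difference was the larger of the pair. Among the 248 genes at least 2-fold higher, 127 (51.2%) were called higher between the wild types, and the median wild-type difference was 0.61 beside a median mutant difference of 1.35. Pearson's r between the mutant and wild-type differences was 0.531 over the 15708 genes and 0.610 over the 12284 genes whose average log2 CPM reached 1. Genes of one library share its depth and composition, so these values describe the plot and carry no p.

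**Figure D1:**
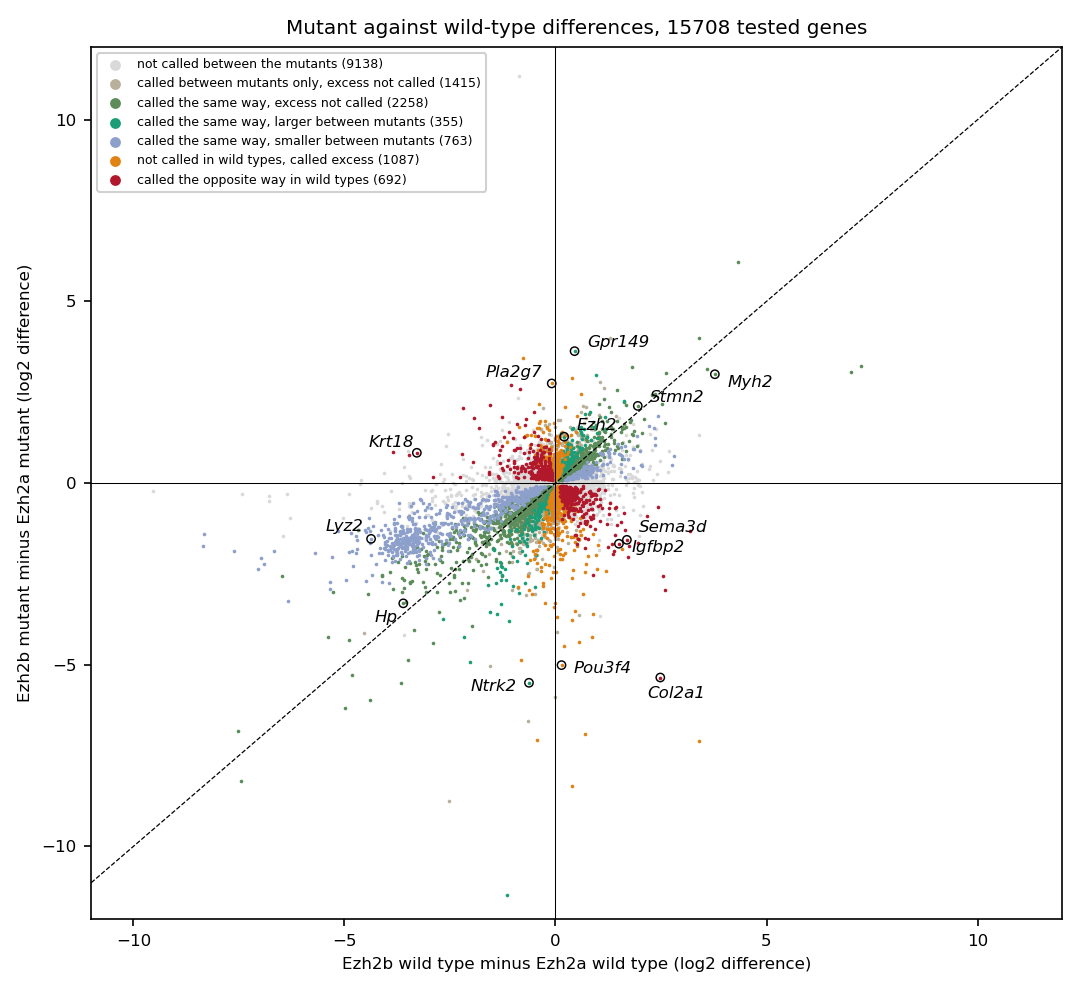
Each point is 1 of 15708 tested genes, with the log2 difference between the wild types on the x axis and between the mutants on the y axis; the dashed line marks equal differences and colours mark which of the differences were called. Of the 763 genes with a smaller difference between the mutants, the 614 lower in the Ezh2b sets form a cloud to the left, with Lyz2 in it, and the 149 higher ones lie to the right of 0, while Pou3f4, Ntrk2 and Col2a1 lie far below the dashed line.

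Ezh2 itself differed between the mutants. The Ezh2a mutant libraries held 14.2, 15.2 and 14.2 CPM of Ezh2, and the Ezh2b mutant libraries 35.4, 33.6 and 36.4. The Ezh2a wild types held 30.5, 30.4 and 30.1 CPM and the Ezh2b wild types 33.8, 35.8 and 35.3. Thus the Ezh2a mutant was the low group, below the other 9 libraries, and the Ezh2b mutant overlapped its own wild type. The mutant difference was 1.27 (SE 0.052, adjusted p = 3.81e-13), the wild-type difference 0.21 (SE 0.048, adjusted p = 0.00167) and the excess 1.07 (SE 0.071, adjusted p = 8.44e-10). Ezh2 lies on chromosome 6 at 47530139 to 47595341 on the minus strand (GENCODE M21, GRCm38). A count over the whole gene does not show which of its forms was made, so for the Ezh2b mutant it does not check the label.

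The other PRC2 genes differed little between the mutants. Of 13 PRC2 genes tested, with Ezh2 counted among them, 4 were higher and 2 lower in the Ezh2b mutant. Over all tested genes 19.0% were higher and 22.8% lower. Between the wild types 7 of the 13 were higher and 1 lower. The medians, also with Ezh2, were 0.07 between the mutants and 0.17 between the wild types. Scaling by library totals put the mutant median at -0.01. Apart from Ezh2, the called differences between the mutants were small. Aebp2, a subunit that helps PRC2 bind nucleosomes, differed by 0.24 between the mutants and 0.36 between the wild types. Ezh1 was lower in the Ezh2b set both times, by a log2 difference of -0.20 between the mutants and -0.42 between the wild types, and the mutant call was lost (adjusted p = 0.068) without replicate 1 of the Ezh2a mutant. Among 22 genes of PRC1, the complex that binds the PRC2 mark and ubiquitinates histone H2A, 11 were lower and 3 higher in the Ezh2b mutant, against 4 lower and 3 higher between the wild types. The count of 11 fell to 6 without replicate 2 of the Ezh2a mutant and to 7 without replicate 3 of the Ezh2b mutant. Bmi1, a PRC1 core subunit, turned: it held 85.3, 84.5 and 86.4 CPM in the Ezh2a mutant and 55.2, 57.3 and 56.0 in the Ezh2b mutant, a difference of -0.60 (SE 0.044), while the wild types differed by 0.22 (SE 0.045).

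Cdkn2a, which encodes the cell-cycle inhibitors p16 and p19 and is a known target of PRC2 in fibroblasts, was higher in the Ezh2b mutant. Its level was 20.1, 20.3 and 21.5 CPM in the Ezh2a mutant and 50.0, 51.9 and 51.6 in the Ezh2b mutant, with no overlap. The wild types held 37.2, 39.7 and 39.1 CPM in the Ezh2a set and 59.7, 62.9 and 61.0 in the Ezh2b set. The mutant difference of 1.31 (SE 0.046) was about the sum of a wild-type difference of 0.66 (SE 0.043) and an excess of 0.65 (SE 0.063, adjusted p = 1.78e-07). Both mutants lay below their own wild types in this gene. Of 10 cell-cycle inhibitor genes tested, 3 were higher and 7 lower between the mutants, with a median of -0.18. Between the wild types 4 were higher and 2 lower, with a median of 0.09. The shares over all tested genes were 19.0% higher and 22.8% lower between the mutants, and 20.4% and 21.8% between the wild types.

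**Figure D2:**
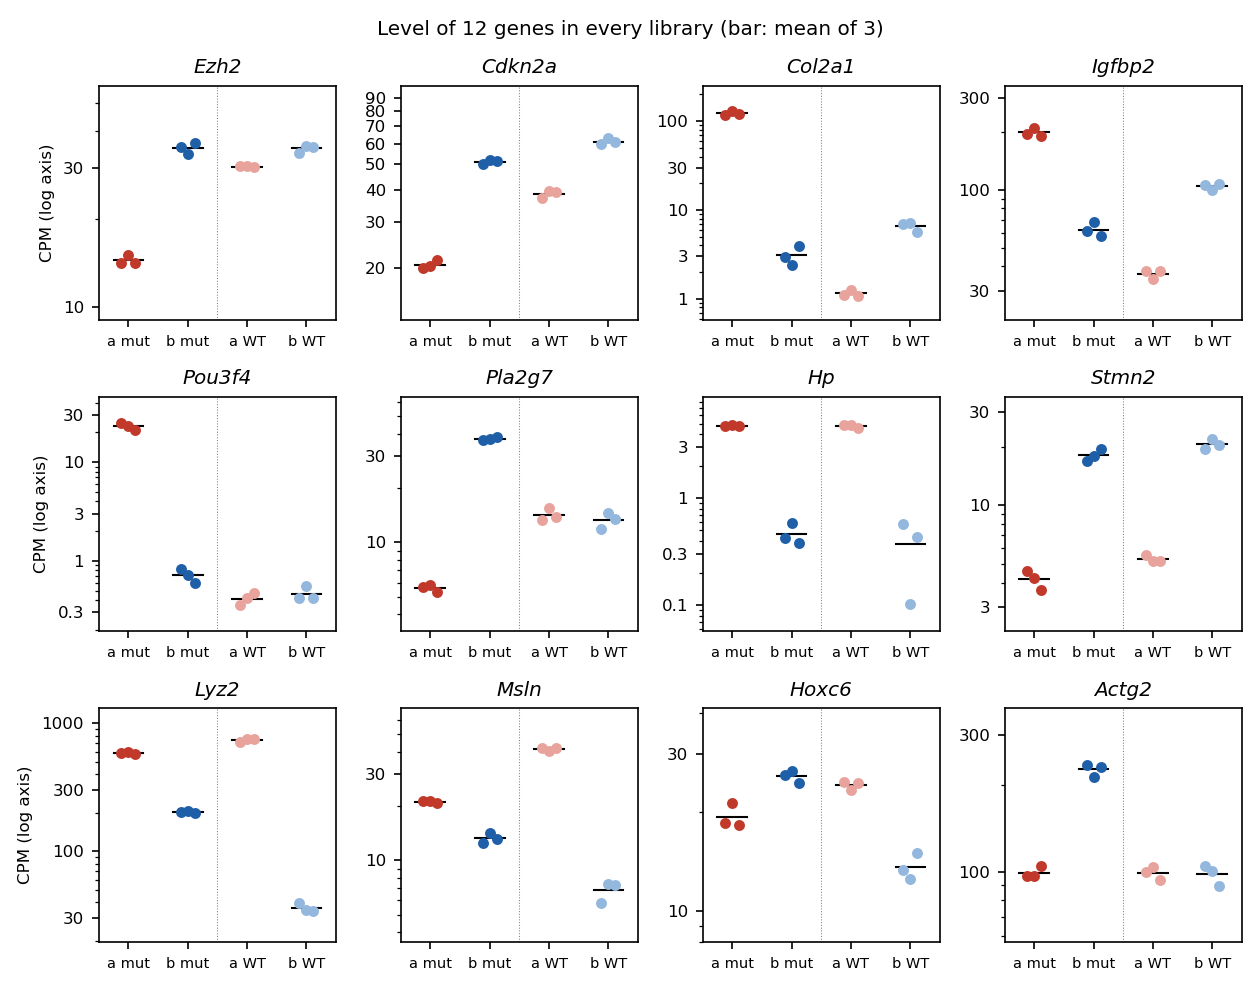
Each panel shows 1 gene in all 12 libraries, in CPM on a log axis, with 1 point per library and a bar at the mean of 3; a and b stand for the Ezh2a and Ezh2b sets, mut for mutant and WT for wild type. Hp and Stmn2 show steps in the same direction left and right of the dotted line, Pou3f4 and Pla2g7 a step on the left only, and Col2a1 and Igfbp2 steps in opposite directions.

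The genes that set the mutants apart without a matching wild-type difference included several regulators of embryonic patterning. Pou3f4, a transcription factor of the inner ear and its surrounding mesenchyme, held 24.6, 23.2 and 21.3 CPM in the Ezh2a mutant and 0.818, 0.722 and 0.602 in the Ezh2b mutant. The Ezh2a wild types held 0.357, 0.420 and 0.467 CPM and the Ezh2b wild types 0.418, 0.551 and 0.421. Only the Ezh2a mutant stood apart, and the other 9 libraries were all under 1 CPM. The mutant difference was -5.01 (SE 0.13, adjusted p = 1.05e-15), the wild-type difference 0.14 (SE 0.24, adjusted p = 0.736) and the excess -5.15 (SE 0.30).

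Six2, a transcription factor of kidney progenitors and facial mesenchyme, followed the same pattern. The Ezh2a mutant held 5.82 to 6.26 CPM and the Ezh2b mutant 1.03, 0.810 and 0.888, while the 6 wild-type libraries ran from 0.516 to 1.03. The mutant difference was -2.74 (SE 0.18) and the wild-type difference -0.28 (SE 0.23, adjusted p = 0.348). Ntrk2, which encodes the neurotrophin receptor TrkB, had the largest mutant difference of any gene picked for size, -5.50 (SE 0.19). Its level was 11.1, 10.9 and 9.39 CPM in the Ezh2a mutant and 0.213, 0.197 and 0.285 in the Ezh2b mutant, and the wild-type libraries ran from 0.418 to 0.872. Between the wild types Ntrk2 differed by -0.63 (SE 0.22, adjusted p = 0.0293), a call lost with DESeq2 (adjusted p = 0.065) and without any 1 of 4 wild-type libraries, replicates 1 and 2 of either set.

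PRC2 in mammals is known to gather at promoters rich in the dinucleotide CG. The 250 bases before the RefSeq start of 3 of the genes above are shown beside those of 2 macrophage genes described further on, picked after their values were seen, with every CG in capitals. Sequences are from RefSeq on GRCm38.p6 and read 5′ to 3′ on the strand of the gene. CG reads the same on both strands, and the motif searched was CG.
Pou3f4: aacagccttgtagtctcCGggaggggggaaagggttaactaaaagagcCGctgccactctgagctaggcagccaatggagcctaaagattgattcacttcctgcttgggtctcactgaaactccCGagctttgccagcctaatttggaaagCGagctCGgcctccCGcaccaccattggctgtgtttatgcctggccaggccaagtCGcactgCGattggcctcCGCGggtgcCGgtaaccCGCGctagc
Six2: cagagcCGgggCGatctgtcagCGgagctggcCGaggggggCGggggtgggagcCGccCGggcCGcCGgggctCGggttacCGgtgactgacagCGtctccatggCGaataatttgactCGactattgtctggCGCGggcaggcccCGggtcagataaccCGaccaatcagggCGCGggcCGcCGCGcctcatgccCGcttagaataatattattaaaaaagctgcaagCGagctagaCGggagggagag
Ntrk2: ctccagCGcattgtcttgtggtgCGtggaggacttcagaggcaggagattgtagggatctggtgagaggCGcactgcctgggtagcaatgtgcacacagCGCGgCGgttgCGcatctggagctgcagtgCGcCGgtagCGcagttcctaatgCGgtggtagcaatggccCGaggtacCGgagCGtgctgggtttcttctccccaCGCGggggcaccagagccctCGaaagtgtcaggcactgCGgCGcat
Lyz2: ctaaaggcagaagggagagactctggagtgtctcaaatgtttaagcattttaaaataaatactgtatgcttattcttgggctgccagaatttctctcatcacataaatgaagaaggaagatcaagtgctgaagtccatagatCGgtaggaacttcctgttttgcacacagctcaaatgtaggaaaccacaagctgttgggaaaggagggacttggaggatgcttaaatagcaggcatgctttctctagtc
C1qc: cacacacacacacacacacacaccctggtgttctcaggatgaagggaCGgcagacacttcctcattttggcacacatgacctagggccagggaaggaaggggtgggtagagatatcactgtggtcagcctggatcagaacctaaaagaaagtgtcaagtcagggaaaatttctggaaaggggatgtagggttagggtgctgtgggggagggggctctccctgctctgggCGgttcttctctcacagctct
The stretches lie at chrX:110814129-110814378 on the plus strand for Pou3f4, chr17:85688255-85688504 on the minus strand for Six2, chr13:58806319-58806568 on the plus strand for Ntrk2, chr10:117282273-117282522 on the minus strand for Lyz2 and chr4:136892915-136893164 on the minus strand for C1qc. They held 13, 26, 19, 1 and 2 CG in this order. Of 32851 promoter stretches of the same length, 31.5% held at least 13 CG, 9.59% at least 26, 19.7% at least 19, 92.1% at least 1 and 81.2% at least 2, and the median was 6. These counts describe letters in 5 windows and were not tested against the differences.

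In the other direction, Pla2g7 and Gpr149 were high in the Ezh2b mutant. Pla2g7, a secreted enzyme that breaks down platelet-activating factor, held 5.69, 5.82 and 5.33 CPM in the Ezh2a mutant and 36.7, 37.4 and 38.5 in the Ezh2b mutant. The wild types lay between them, at 13.3, 15.5 and 13.8 CPM in the Ezh2a set and 11.9, 14.6 and 13.5 in the Ezh2b set, and overlapped. The mutant difference was 2.74 (SE 0.081) and the wild-type difference -0.09 (SE 0.076, adjusted p = 0.379). Gpr149, an orphan receptor, differed by 3.63 (SE 0.14) between the mutants and 0.45 (SE 0.11, adjusted p = 0.0033) between the wild types. Like Pla2g7 and unlike Gpr149, further genes had no called wild-type difference. On the high side they were Tfpi2, an inhibitor of serine proteases (2.11), and Dusp4, a phosphatase of MAP kinases (1.53). Ankrd1, a muscle ankyrin repeat protein (1.52), Foxf1 (1.40), which overlaps Gm20388 on the same strand, and Wnt2b (1.31) were also among them. On the low side they were Prokr1, a prokineticin receptor (-2.44), Sobp (-2.10), Adamts3, a procollagen protease (-1.99), Meox2, a homeobox gene of somites and vessels (-2.27) and Homer2 (-1.82). Without replicate 2 of the Ezh2b wild type, the wild-type difference was called for Adamts3 (adjusted p = 0.014) and Ankrd1 (adjusted p = 0.033).

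A further set of genes was called the same way between the mutants and between the wild types, with no called excess. An excess that was not called does not show that the differences were equal. Hp, which encodes the hemoglobin-binding protein haptoglobin, held 4.71, 4.88 and 4.80 CPM in the Ezh2a mutant and 0.427, 0.591 and 0.380 in the Ezh2b mutant, and 4.88, 4.87 and 4.58 in the Ezh2a wild type against 0.578, 0.103 and 0.439 in the Ezh2b wild type. Both Ezh2a groups were high and both Ezh2b groups low. The mutant difference was -3.31 (SE 0.24), the wild-type difference -3.61 (SE 0.24) and the excess 0.30 (SE 0.38, adjusted p = 0.638).

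Stmn2, a tubulin-binding protein of neurons, was high in both Ezh2b groups. It held 4.57, 4.21 and 3.69 CPM in the Ezh2a mutant and 17.0, 17.9 and 19.5 in the Ezh2b mutant, without overlap. Its mutant difference of 2.12 (SE 0.090) stood beside a wild-type difference of 1.95 (SE 0.085). Fosl1, a member of the AP-1 family (1.53 and 1.57), Myo5c, a myosin motor (2.43 and 2.28) and Kcnk3, a potassium channel, were also higher in both Ezh2b groups with no called excess. Fosl1 overlaps Ccdc85b on the opposite strand, whose own differences were 0.28 and 0.68. Nos1, the neuronal nitric oxide synthase, Il31ra, a cytokine receptor, and Acan, the cartilage proteoglycan aggrecan, were lower in both. For Acan the differences were -2.21 (SE 0.12) and -1.64 (SE 0.21), and the excess was called (adjusted p = 0.039) without replicate 2 of the Ezh2b mutant. Myh1 and Myh2, myosin heavy chains of fast skeletal muscle, were higher in the Ezh2b mutant by 3.02 and 2.99 and in the Ezh2b wild type by 2.61 and 3.78. They are near-identical neighbours on chromosome 11, so reads may be split between them. The excess of Myh2 was called with a replicate block (adjusted p = 0.046) and without replicate 1 of the Ezh2b mutant (0.031), and that of Myh1 without replicate 1 of the Ezh2a mutant (0.018). The muscle regulator Myod1 had 0 counts in all libraries.

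In 692 genes the order of the sets was opposite in mutants and wild types, and Col2a1 had the largest excess among those named. Col2a1 encodes the main collagen of cartilage. The Ezh2a mutant held 119, 131 and 121 CPM and the Ezh2b mutant 2.95, 2.41 and 3.90. The Ezh2a wild type held 1.10, 1.26 and 1.09 CPM and the Ezh2b wild type 6.94, 7.13 and 5.58. The Ezh2a set was therefore the high one in the mutants and the low one in the wild types, with no overlap either time. The mutant difference was -5.35 (SE 0.10), the wild-type difference 2.48 (SE 0.16) and the excess -7.84 (SE 0.19, adjusted p = 3.82e-16).

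Igfbp2, which binds insulin-like growth factors, held 194, 210 and 191 CPM in the Ezh2a mutant and 61.1, 67.7 and 57.8 in the Ezh2b mutant, against 38.1, 34.5 and 37.7 and 106, 100 and 107 in the Ezh2a and Ezh2b wild types. Sema3d, a secreted guidance cue, held 57.8, 54.1 and 52.6 CPM in the Ezh2a mutant and 20.5, 18.9 and 16.3 in the Ezh2b mutant, against 29.3, 30.6 and 30.8 and 98.1, 92.0 and 103 in the wild types. In both genes the Ezh2a mutant was above the Ezh2b mutant and the Ezh2a wild type below the Ezh2b wild type. For Igfbp2 the mutant difference was -1.67 (SE 0.054) and the excess -3.17. For Sema3d the mutant and wild-type differences were -1.56 (SE 0.065) and 1.69 (SE 0.060). Eya1, a cofactor of Six2 and its relatives, differed by -1.16 and 1.46. Dlk1 and Penk, an imprinted growth regulator and the enkephalin precursor, differed by -0.55 and -0.65 between the mutants and 1.29 and 2.42 between the wild types.

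The opposite turn, higher in the Ezh2b mutant and lower in the Ezh2b wild type, was shown by Krt18, a keratin of simple epithelia. It held 1.06, 1.17 and 0.899 CPM in the Ezh2a mutant and 2.27, 1.82 and 1.52 in the Ezh2b mutant, against 10.7, 9.10 and 9.90 and 0.803, 0.998 and 1.17 in the wild types. The mutant groups did not overlap, at a level near 1 CPM, and the Ezh2a wild type was far above all other groups. The differences were 0.83 (SE 0.19, adjusted p = 0.00159) and -3.28 (SE 0.16). Siglecg (0.90 and -0.95) and Serpinb9b (1.01 and -1.26) were ordered likewise. Serpinb9b and Ifi27l2b have close relatives in the genome that may share reads. Tg overlaps Sla on the opposite strand, and without a stated strand setting their reads cannot be told apart.

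Macrophage genes were lower in the Ezh2b mutant than in the Ezh2a mutant, and by less than between the wild types. All 19 tested macrophage genes were called lower in both comparisons, and all 19 had a called upward excess. The median was -1.68 between the mutants and -3.70 between the wild types, against -0.02 and 0.00 over all tested genes. Lyz2, the lysozyme of macrophages, held 590, 594 and 582 CPM in the Ezh2a mutant and 203, 206 and 201 in the Ezh2b mutant. The wild types held 721, 752 and 755 CPM in the Ezh2a set and 39.6, 34.6 and 33.9 in the Ezh2b set. Both Ezh2a groups were high, the Ezh2b wild type was lowest and the Ezh2b mutant lay in between. C1qc, a chain of complement C1q, differed by -1.79 (SE 0.047) and -3.91 (SE 0.056), and Csf1r, the CSF1 receptor of macrophages, by -1.68 (SE 0.044) and -3.65 (SE 0.052).

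Together the listed macrophage genes took 0.178% to 0.191% of the counts of the Ezh2a mutant and 0.0523% to 0.0566% of those of the Ezh2b mutant. In the Ezh2a wild type the share was 0.186% to 0.192%, and in the Ezh2b wild type 0.0119% to 0.0129%. In bulk samples fewer macrophages and less macrophage RNA per cell cannot be told apart. Outside the list, 141 called genes fell within the range of mutant differences and the range of wild-type differences spanned by the 19, a window chosen after the values were seen. The window admitted only genes at least 2-fold lower in the Ezh2b mutant, so all 141 belong to those 935 genes, 15.1% of them. Among the 141 are Itgb2, Spi1, Trem2, Msr1, Irf8 and Mpeg1, all known from macrophages and picked by name. Whether the others come from macrophages was not tested. The few markers chosen for lymphocytes, fat cells and red cells were at or near 0 in all libraries (0 counts of Cd3e, Adipoq and Hbb-bt). The other chosen markers of these cells had no more than 16 counts. A wider list of 12 adipocyte genes did hold counts, on average 0.0188% in the Ezh2a mutant and 0.0121% in the Ezh2b mutant. Its average was 0.0154% in the Ezh2a wild type and 0.0112% in the Ezh2b wild type. Of its 9 tested genes, 4 were lower and 1 higher between the mutants, and 5 lower and 2 higher between the wild types. Among endothelial markers Pecam1, Cdh5, Tie1 and Emcn had at most 18 counts, while Tek had 20 to 118 and Kdr 139 to 590. Of 7 tested endothelial genes, 5 were lower and 1 higher between the mutants, with a median of -0.76, and 2 were lower and 3 higher between the wild types, with a median of -0.08. Fibroblast markers were abundant throughout, with Col1a1 at 15925 to 19538 CPM.

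Genes of mesothelium, the lining of body cavities, showed a smaller mutant difference beside a large wild-type difference. Of 10 tested, 7 were lower and 0 higher between the mutants, 10 were lower between the wild types, and 9 had a called upward excess, with medians of -0.59 and -3.34. Msln, the surface protein mesothelin, held 21.3, 21.4 and 20.9 CPM in the Ezh2a mutant and 12.5, 14.1 and 13.2 in the Ezh2b mutant, against 42.2, 40.1 and 41.8 and 5.82, 7.44 and 7.28 in the wild types. The Ezh2a wild type was thus highest, the Ezh2b wild type lowest and the mutants in between, without overlap. The summed share of the list was 0.00657% to 0.00726% in the Ezh2a mutant and 0.00395% to 0.00423% in the Ezh2b mutant. Muc16, a mesothelial mucin, was called between the wild types alone (-3.46, SE 0.22), at 0.19 (SE 0.18, adjusted p = 0.429) between the mutants. The call for Wt1 between the mutants (-0.54) was lost with DESeq2 (adjusted p = 0.057) and without replicate 2 of the Ezh2a mutant or replicate 1 or 3 of the Ezh2b mutant. The part of macrophage and mesothelial RNA in the other differences was not tested.

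**Figure D3:**
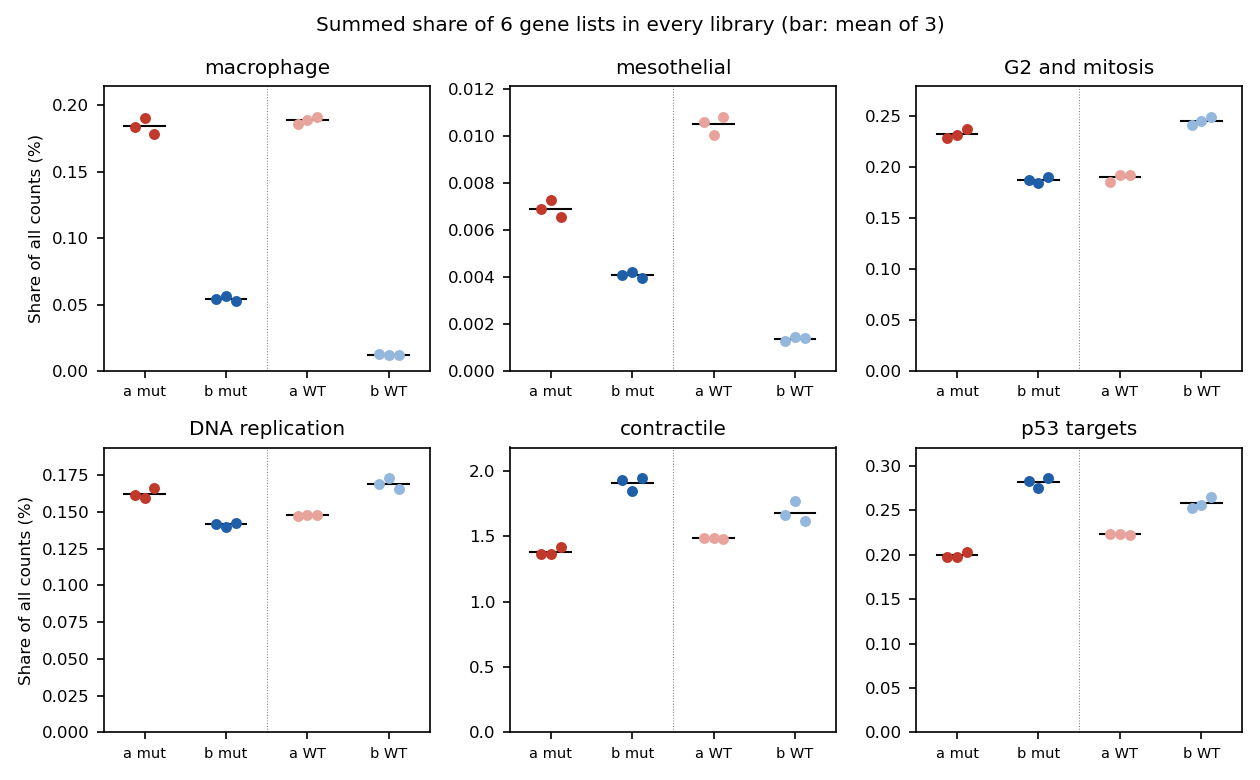
Each panel shows the share of all counts taken by 1 gene list in each of the 12 libraries, in percent, with 1 point per library and a bar at the mean of 3; a and b stand for the Ezh2a and Ezh2b sets. The Ezh2b mutant lies between the Ezh2a libraries and the Ezh2b wild type in the macrophage list, and the order of the sets is opposite left and right of the dotted line for G2 and mitosis and for DNA replication.

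Cartilage genes were mostly lower in the Ezh2b mutant. Of 16 tested, 11 were lower and 1 higher between the mutants, against 8 lower and 4 higher between the wild types, and 10 had a called downward excess. The median was -0.85 between the mutants and -0.25 between the wild types. Among all tested genes 22.8% were lower between the mutants and 21.8% between the wild types, and 11.9% had a called downward excess. Beside Col2a1 and Acan, Col9a1, a chain of the type IX collagen of cartilage, held 3.45, 3.58 and 3.56 CPM in the Ezh2a mutant and 0.249, 0.197 and 0.349 in the Ezh2b mutant, while the wild types overlapped below 0.5 CPM. Matn4, a matrilin, and Epyc, a small proteoglycan, differed by -3.79 and -4.91 between the mutants and by -1.11 and -2.03 between the wild types. Matn4 overlaps Rbpjl on the opposite strand. Sox9, the transcription factor that drives cartilage formation, differed by less: 26.1, 28.6 and 26.0 CPM against 14.5, 15.3 and 15.1, a difference of -0.84 (SE 0.064) beside -0.43 (SE 0.065) in the wild types. Col10a1, the collagen of hypertrophic cartilage, went the other way. It held 10.8, 12.6 and 11.0 CPM in the Ezh2a mutant and 54.2, 59.1 and 49.1 in the Ezh2b mutant, a difference of 2.25 (SE 0.074) of which 1.62 (SE 0.072) was present between the wild types. Col10a1 lies within Nt5dc1 on the opposite strand, whose own differences were -0.10 and 0.07.

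Transcription factors of face and skull mesenchyme were also mostly lower in the Ezh2b mutant. Of 23 tested, 16 were lower and 4 higher between the mutants, while 5 were lower and 6 higher between the wild types, and 13 had a called downward excess. The median was -0.46 between the mutants and 0.05 between the wild types. All tested genes gave 22.8% lower between the mutants, 21.8% lower between the wild types and 11.9% with a called downward excess. Foxd1, a transcription factor of kidney stroma and facial mesenchyme, held 7.50, 7.73 and 8.27 CPM in the Ezh2a mutant and 2.38, 1.99 and 2.95 in the Ezh2b mutant, with wild types that overlapped between 1.51 and 2.19. Pou3f3, a relative of Pou3f4, differed by -3.74 (SE 0.14) between the mutants and by -2.67 (SE 0.19) between the wild types. The distal-less genes of the jaw, Dlx1, Dlx5 and Dlx6, were lower in the Ezh2b mutant by -4.22, -2.56 and -3.08, all at under 3 CPM. Between the wild types Dlx5 was lower too (-1.28, SE 0.37), Dlx6 did not pass the test (adjusted p = 0.533), and Dlx1, called lower, had 0.125 to 0.194 CPM in the Ezh2a set and 0 counts in the Ezh2b set. Barx1, a homeobox gene of facial and stomach mesenchyme, was higher by 1.97 (SE 0.18), beside -0.52 (SE 0.17) between the wild types, a wild-type call lost without any 1 of 4 wild-type libraries, replicates 2 and 3 of either set.

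The Hox genes, which record position along the body axis and the limb, were called more often between the wild types than between the mutants. Of 34 Hox genes tested, 19 were lower and 6 higher in the Ezh2b wild type, and 4 were lower and 13 higher in the Ezh2b mutant. Over all tested genes 42.3% were called between the wild types and 41.8% between the mutants. The 11 HoxA genes did not show this: 3 were higher and 1 lower between the mutants, and 2 higher and 2 lower between the wild types. Their medians were -0.16 and -0.21. The 8 HoxB genes included 7 lower between the wild types and 0 lower and 1 higher between the mutants, with medians of -0.68 and 0.14. The 1 higher became 2 with DESeq2 and 3 without replicate 2 of the Ezh2b wild type, where Hoxb8 (adjusted p = 0.043) and Hoxb6 (0.04996) were also called. Of 7 HoxC genes, 6 were lower between the wild types, and 5 were higher and 0 lower between the mutants, with medians of -0.82 and 0.46. The excess was called upward in all 8 HoxB and all 7 HoxC genes. Hoxc6, a gene of the thorax, held 18.6, 21.3 and 18.3 CPM in the Ezh2a mutant and 25.9, 26.7 and 24.6 in the Ezh2b mutant, against 24.6, 23.3 and 24.5 and 13.3, 12.5 and 15.0 in the wild types. The Ezh2b set was the high one in the mutants and the low one in the wild types. Its differences were 0.41 (SE 0.071) and -0.82 (SE 0.073). The excess calls of Hoxb7, Hoxb8 and Hoxc11, and the mutant call of Hoxc11, were each lost without some single libraries, among them replicate 1 of the Ezh2a mutant for Hoxb7 (adjusted p = 0.061) and Hoxb8 (0.062) and replicate 3 for Hoxc11 (0.052 for the excess and 0.063 for the mutant difference).

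HoxD genes kept their direction. All 7 HoxD genes called between the mutants were called the same way between the wild types, Hoxd3, Hoxd4 and Hoxd8 lower and Hoxd10 to Hoxd13 higher in the Ezh2b set. Hoxd13, the gene at the end of the cluster that is used in hands, feet and genitalia, held 46.5, 46.3 and 47.4 CPM in the Ezh2a mutant and 51.5, 56.5 and 54.6 in the Ezh2b mutant, and 54.0 to 57.9 against 118, 116 and 135 in the wild types. The mutants differed by 0.22 (SE 0.055) without overlap and the wild types by 1.13 (SE 0.053), with an excess of -0.92 (SE 0.076). Scaling by library totals ended the mutant call of Hoxd13 (adjusted p = 0.055), and that of Hoxd4 was lost without any 1 of 5 mutant libraries, all but replicate 2 of the Ezh2b mutant, and without replicate 1 of the Ezh2a wild type. Split by number over all clusters, a split made after the values were seen, the 25 genes numbered 1 to 9 had a median of 0.00 between the mutants and -0.73 between the wild types, and the 9 genes numbered 10 to 13 medians of 0.33 and 0.51. Among other position genes of trunk and limb, 9 of 28 were higher and 14 lower between the mutants, and 11 higher and 11 lower between the wild types. Pitx1, which marks the hindlimb, was higher by 1.07 (SE 0.057) and 0.30 (SE 0.054).

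**Figure D4:**
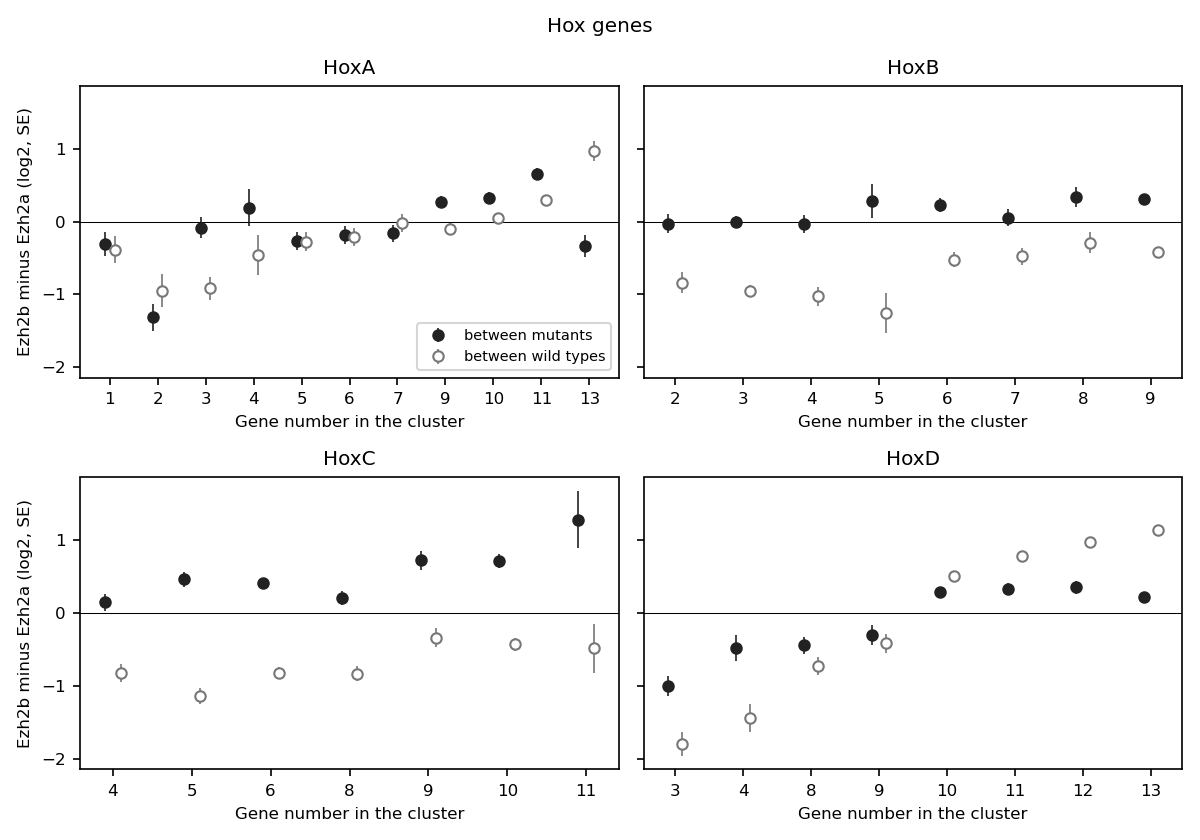
The log2 difference of each tested Hox gene is shown by cluster, between the mutants (filled) and between the wild types (open), with bars of 1 standard error; the x axis gives the gene's number in its cluster. In HoxB and HoxC the open points lie below 0 and the filled points near or above it, and in HoxD both run from below 0 to above 0. In HoxA both kinds of point lie on either side of 0.

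Cell division genes turned as a group. Of 36 genes of G2 and mitosis, 28 were lower and 0 higher in the Ezh2b mutant, while all 36 were higher in the Ezh2b wild type, and 35 had a called downward excess. The median was -0.23 between the mutants and 0.41 between the wild types. Ccna2, a cyclin of S phase and G2, held 84.7, 86.7 and 87.6 CPM in the Ezh2a mutant and 63.6, 63.6 and 65.2 in the Ezh2b mutant, against 62.5, 67.4 and 65.6 and 81.3, 89.0 and 92.5 in the wild types. The groups did not overlap within either pair. The differences were -0.43 (SE 0.045) and 0.43 (SE 0.045). Mki67, the proliferation marker, differed by -0.46 (SE 0.038) and 0.16 (SE 0.038). Of 42 DNA replication genes, 23 were lower and 1 higher between the mutants, and 24 were higher and 0 lower between the wild types, with medians of -0.17 and 0.19.

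Targets of p53 mostly differed the same way in mutants and wild types, with a larger median in the mutants. Of 24 tested, 19 were higher and 3 lower between the mutants, and 14 higher and 3 lower between the wild types. Both differences were called the same way in 15 and opposite ways in 2. The excess was called upward in 15 and downward in 2. Medians were 0.41 between the mutants and 0.17 between the wild types. Cdkn1a, the cell-cycle inhibitor p21, held 240, 234 and 250 CPM in the Ezh2a mutant and 402, 387 and 402 in the Ezh2b mutant, against 280, 272 and 259 and 313, 328 and 306 in the wild types. The Ezh2b set was higher both times, without overlap. The differences were 0.72 (SE 0.039) and 0.22 (SE 0.038), with an excess of 0.50 (SE 0.054). Mdm2, the ubiquitin ligase of p53, differed by 0.79 and 0.30, and Ccng1 by 0.80 and 0.37. Sesn1, another target, was lower both times (-0.97 and -0.48).

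Contractile genes of smooth muscle and myofibroblasts were likewise mostly higher in the Ezh2b set, though not each of them between the wild types. Of 21 tested, 19 were higher and 1 lower between the mutants, 14 were higher and 2 lower between the wild types, and 15 had a called upward excess, with medians of 0.65 and 0.25. Actg2, the smooth muscle gamma actin, held 96.9, 96.6 and 105 CPM in the Ezh2a mutant and 236, 214 and 232 in the Ezh2b mutant, while the wild types overlapped between 89.6 and 105. Its mutant difference was 1.19 (SE 0.056) and its wild-type difference -0.02 (SE 0.056, adjusted p = 0.842). Acta2, the smooth muscle alpha actin, differed by 0.67 (SE 0.044) and 0.08 (SE 0.044, adjusted p = 0.169), and Cnn1, calponin, by 1.27 (SE 0.061) and 0.75 (SE 0.060). Des, the muscle intermediate filament desmin, was 1 of the 2 lower between the wild types: 0.15 (SE 0.048) between the mutants beside -2.90 (SE 0.050) between the wild types. Outside the contractile list, Thbs1, a matrix protein, and Inhba, a subunit of activin, were higher in the Ezh2b mutant by 0.84 and 1.08. Their wild-type differences were -0.14 and 0.30. Of 11 tendon and thrombospondin genes, 3 were higher and 7 lower between the mutants, and 3 higher and 8 lower between the wild types. Of 29 genes of the BMP and TGF-beta pathway, 11 were higher and 10 lower between the mutants, and 13 higher and 10 lower between the wild types. For all tested genes the shares were 19.0% higher and 22.8% lower between the mutants, and 20.4% and 21.8% between the wild types.

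**Figure D5:**
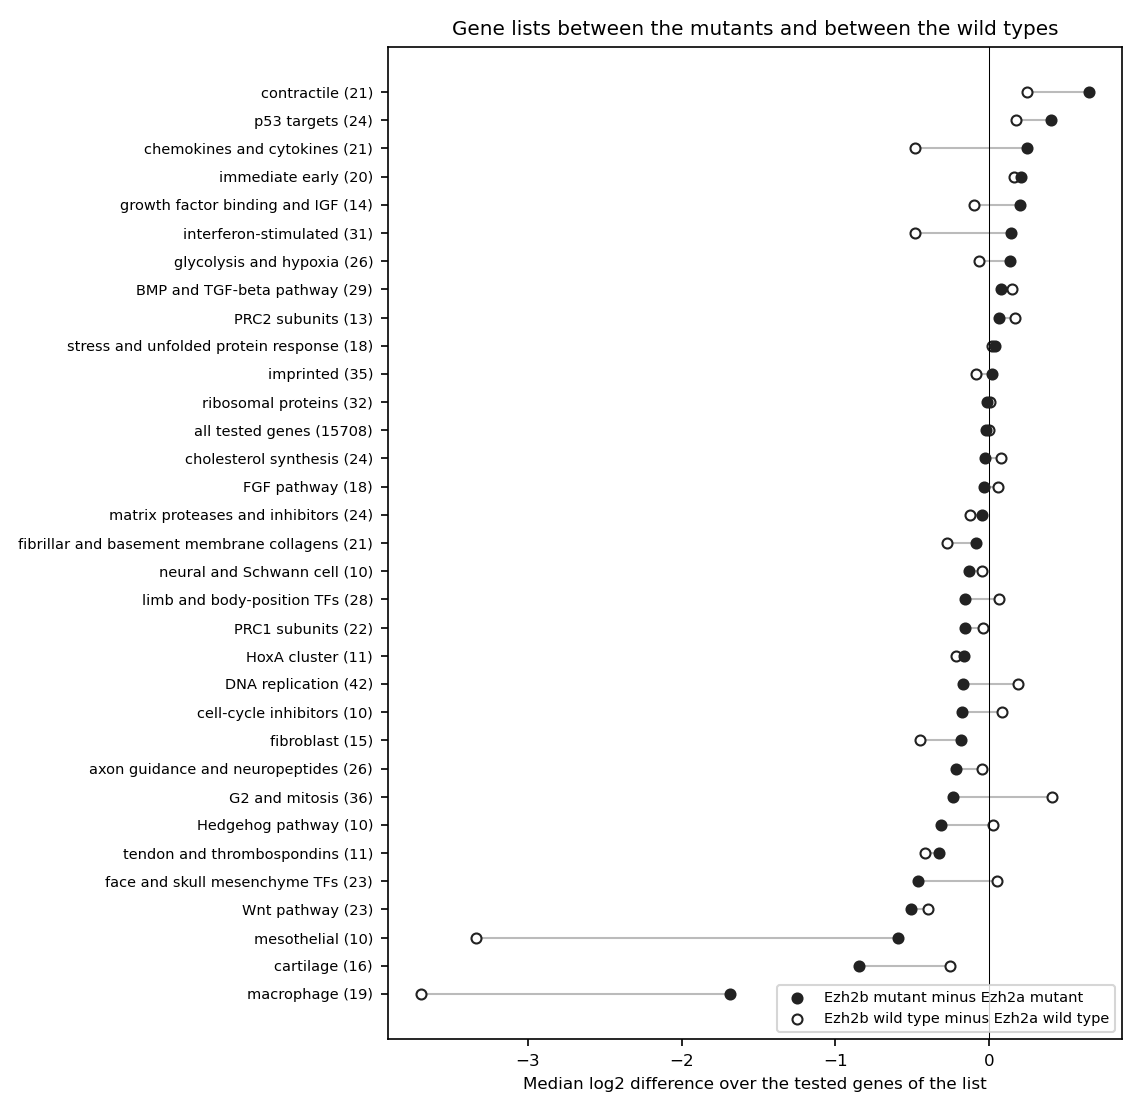
Medians of the log2 differences over the tested genes of each list with at least 10 such genes, between the mutants (filled) and between the wild types (open), ordered by the former; the number of tested genes is in brackets. The filled and open points lie furthest apart for mesothelial and macrophage genes, and lie on opposite sides of 0 for G2 and mitosis (-0.23 and 0.41) and interferon-stimulated genes (0.14 and -0.48).

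Fibroblast matrix and signalling genes gave a mixed picture. Of 15 fibroblast genes, 8 were lower and 4 higher between the mutants, and 12 were lower and 2 higher between the wild types. Lum and Dcn, small proteoglycans of collagen fibrils, were lower by -1.83 (SE 0.084) and -0.99 (SE 0.058), beside -1.46 and -1.58 between the wild types. Col1a1 did not pass the test between the mutants (0.00, SE 0.033, adjusted p = 0.965). Mmp13, a collagenase, held 8.76, 10.5 and 9.48 CPM in the Ezh2a mutant and 8.92, 10.5 and 8.46 in the Ezh2b mutant, which overlapped, while the wild types differed by -4.64 (SE 0.15). Sfrp2, a secreted antagonist of Wnt signalling, held 83.0, 89.7 and 82.5 CPM in the Ezh2a mutant and 6.26, 8.10 and 6.91 in the Ezh2b mutant. Its difference of -3.56 (SE 0.096) exceeded that between the wild types, -1.55 (SE 0.094), by -2.01 (SE 0.14). Of 23 Wnt pathway genes, 13 were lower and 5 higher between the mutants, and 11 lower and 5 higher between the wild types. As a base, 22.8% of all tested genes were lower and 19.0% higher between the mutants, and 21.8% and 20.4% between the wild types. Gdf10, a ligand of the BMP family, differed by -2.54 (SE 0.14) and -1.27 (SE 0.14), and Igfbp4 by -1.35 (SE 0.051) and -0.27 (SE 0.050).

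Few interferon-stimulated genes were called between the mutants, and more between the wild types. Of 31 interferon-stimulated genes, 17 were lower and 0 higher in the Ezh2b wild type, and 3 were higher and 0 lower in the Ezh2b mutant, namely Isg15, Ifi44 and Ddx58. All 3 mutant calls were lost with DESeq2 (adjusted p = 0.11, 0.13 and 0.10) and without any 1 of 4 mutant libraries, replicates 1 and 2 of the Ezh2b mutant and 2 and 3 of the Ezh2a mutant. The count depended on the libraries: 12 genes of the list were higher without replicate 3 of the Ezh2b mutant, where the list took 0.0499% of counts beside 0.0871% and 0.0924% in replicates 1 and 2. It was 5 with the mutant libraries fitted alone, and 13 higher and 3 lower with no filter on low counts. For Isg15 the Ezh2b mutant libraries held 61.6, 67.1 and 24.0 CPM and the Ezh2a mutant libraries 36.5, 22.3 and 30.4, which overlapped. Of 21 chemokine and cytokine genes, 8 were higher and 5 lower between the mutants, and 4 were higher and 13 lower between the wild types. Tnf, a cytokine made chiefly by macrophages, differed by -1.59 (SE 0.17) and -3.99 (SE 0.21).

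Among genes that serve every cell, few ribosomal protein genes were called with TMM scaling. Of 32 tested, 1 was higher and 1 lower between the mutants, with a median of -0.01, and 2 were higher and 0 lower between the wild types. Scaled by library totals, 14 were lower and 0 higher between the mutants. Glycolysis and hypoxia genes were higher in 13 and lower in 5 of 26 between the mutants, and higher in 2 and lower in 11 between the wild types, with medians of 0.14 and -0.07. The 13 higher became 7 with library totals. By chromosome, the share of tested genes called between the mutants ran from 39.1% on chromosome 17 to 51.6% on chromosome 1 among the autosomes and X. Between the wild types the shares on these chromosomes were 39.9% and 48.2%. Shares by chromosome cover the 14491 tested symbols that match 1 GENCODE gene.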

How the data were processed

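RNA was measured in 12 MEF libraries, 4 groups of 3, from RNA bound to poly-T beads, per the labels' protocols. The authors deposited raw counts for each gene symbol. The submitters' processing notes name GRCm38, edgeR 4.2.1, StringTie 2.1.5, HISAT2 2.1.0 and fastp 0.21.0. Neither the counting program nor the annotation release or strand setting is given in the sources used here. Columns were assigned by the sample descriptions.

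Of 35602 symbols, 15708 passed filterByExpr by group; 11119 were at 0 everywhere. One negative binomial model, with 4 group means, was fitted over the 12 libraries in edgeR 4.0.16 (R 4.3.3, TMM factors 0.977 to 1.03, 8 residual degrees of freedom, square root of the common dispersion 0.047) and contrasts were tested by quasi-likelihood with Benjamini-Hochberg adjustment over all tested genes. A standard error (SE) is the log2 difference over the square root of F. Sharing 1 model uses the spread of all groups. CPM are TMM-scaled. The code was tested on simulated data. Positions are those of GENCODE M21.

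Genes and the 44 gene lists were chosen with earlier results of these data known. Named genes are Ezh2, Ezh1 and Cdkn2a, the 10 largest per direction, 8 per direction without and 8 with a matching wild-type call, 6 per direction that turned, and list members with the largest called differences, all Hox genes and all macrophage, mesothelial, PRC2 and cartilage genes; other list members were named after their values were seen. Apart from lists, named genes reached a mean log2 CPM of 1 and had mutant libraries that did not overlap. Alternatives were other scaling factors, DESeq2 1.42.0, no filter, counts divided by 2, mutant libraries alone, a replicate block, a 2-fold limit and leaving out each library.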

Additional observations from a re-analysis of the deposited data

Results flagged for a closer look

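The difference between the Ezh2b and Ezh2a sets was not the same in mutants and wild types for 4168 of the 15708 tested genes, by the interaction test of edgeR. In 692 of them the mutant and the wild-type difference were both called and pointed in opposite directions.

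Named genes of the latter kind that were lower in the Ezh2b mutant and higher in the Ezh2b wild type were Col2a1 (excess -7.84), Sema3d (-3.26), Igfbp2 (-3.17), Kirrel3 (-2.63), Eya1 (-2.62) and Ccser1 (-2.18). Those with the opposite turn were Krt18 (excess 4.12), Ifi27l2b (2.33), Serpinb9b (2.27), Dcaf12l1 (2.11), Siglecg (1.85) and Tg (1.57). For Ifi27l2b the wild-type call was lost without replicate 3 of the Ezh2b wild type (adjusted p = 0.15) or replicate 1 or 3 of the Ezh2a wild type (0.059 and 0.070). Groups of 3 libraries are too small for the check of single outlying libraries, which was not run.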

How the results depend on the processing

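Counts were recomputed under up to 20 alternatives; the excess and the classes have no value where only 6 libraries enter. Scaling by library totals lowered the count of genes higher in the Ezh2b mutant to 1934, from 2984, and turned the balance of the excess, from 2305 upward and 1863 downward to 1723 and 2787. Of the counts over gene lists, 96 values under an alternative lay more than 1.5 times from the count given and 1367 did not. Without replicate 1 of the Ezh2a mutant, the PRC2 genes lower fell to 1, the p53 targets lower to 1, the contractile genes lower to 0, the fibroblast genes higher to 2 and the Hedgehog genes higher to 0. The same value was reached for PRC2 without replicate 3 of either mutant, for contractile genes without replicate 3 of the Ezh2b mutant, for fibroblast genes without replicate 2 of the Ezh2a or 1 or 3 of the Ezh2b mutant, and for Hedgehog genes without replicate 3 of the Ezh2a or 1 or 2 of the Ezh2b mutant. The DNA replication genes higher rose to 2 without replicate 2 of the Ezh2b mutant. Requiring at least 2-fold left 248 genes higher and 935 lower between the mutants, 268 and 1052 between the wild types, and 662 and 351 with an upward or downward excess; of the genes called between the mutants, 789 were then called the same way between the wild types, 358 of them without a called excess, 161 had a called excess alone and 63 were called opposite ways. These falls follow from the stricter limit. Leaving out 1 library at a time gave 2595 to 3366 genes higher and 3025 to 3760 lower between the mutants, 2991 to 3522 called the same way between the wild types, 919 to 1197 with a called excess alone and 589 to 727 called opposite ways. Of 260 named genes, 31 changed their mutant call under at least 1 alternative, none its sign while called.

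No pairing by replicate number was seen between the mutants: deviations of same-numbered mutant libraries correlated at -0.033, -0.028 and 0.009. Between the wild types they correlated at -0.048, 0.037 and -0.004. Whether the numbers pair a mutant with its own wild type was not checked. A replicate block gave 2983 genes higher and 3548 lower between the mutants and 692 called opposite ways. Krt18 in the mutants and Ntrk2 outside the Ezh2a mutant lay near or below 1 CPM, where few counts limit the precision.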

Other observations

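Imprinted genes, expressed from 1 parental copy, split between the mutants: of 35 tested, 11 were higher and 11 lower in the Ezh2b mutant, against 7 higher and 15 lower in the Ezh2b wild type. Across all tested genes 19.0% were higher and 22.8% lower between the mutants, and 20.4% and 21.8% between the wild types. Peg3, a zinc finger gene of the paternal copy, held 267, 281 and 266 CPM in the Ezh2a mutant and 360, 386 and 362 in the Ezh2b mutant, and 374, 380 and 384 against 210, 191 and 204 in the wild types. Peg3 was higher in the Ezh2b mutant (0.45, SE 0.039) and lower in the Ezh2b wild type (-0.91, SE 0.040), as were its neighbours Zim1 (0.72 and -0.44) and Usp29 (0.56 and -0.98). Mest and Plagl1 were lower in the Ezh2b mutant by -0.90 and -0.99, with wild-type differences of -0.01 and 0.15; that of Mest did not pass the test, and that of Plagl1 lost its call in edgeR without any 1 of 4 wild-type libraries (adjusted p = 0.077 to 0.15).

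Of 14 genes of insulin-like growth factor signalling, 8 were higher and 4 lower between the mutants, and 6 higher and 7 lower between the wild types. Igfbp7, a matrix protein of the same binding protein family, held 139, 132 and 139 CPM in the Ezh2a mutant and 267, 257 and 259 in the Ezh2b mutant, a difference of 0.93 (SE 0.044) beside -0.15 (SE 0.044) between the wild types. Of 10 Hedgehog pathway genes, 6 were lower and 1 higher between the mutants, and 3 lower and 4 higher between the wild types. Both lists stand beside shares over all tested genes of 19.0% higher and 22.8% lower between the mutants. Between the wild types these shares were 20.4% and 21.8%. Boc, a co-receptor for Hedgehog ligands, differed by -0.68 between the mutants and 0.00 between the wild types, where it did not pass the test.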
